A study of Rattus norvegicus with 5 samples.

Results

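The nuclei described here are oligodendrocyte nuclei of the rat ventral tegmental area (VTA) in which *Opalin* was detected and *Grm3* was not. They were picked by their own UMI counts, a UMI (unique molecular identifier) being a tag that marks each captured transcript. A barcode was kept with at least 600 UMIs, more than 200 and fewer than 5000 genes and under 5% mitochondrial UMIs. It was taken as a *Mog* nucleus with at least 3 *Mog* UMIs, at least 10 *Mog* UMIs per 10000, and at most 1 UMI in all of *Nyap2*, *Pdgfra*, *Slc1a2*, *Cx3cr1* and *Cldn5*, which mark neurons, oligodendrocyte precursors, astrocytes, microglia and endothelium. Opalin-type nuclei were the *Mog* nuclei with at least 2 *Opalin* UMIs and no *Grm3* UMI, and they numbered 57 of 7931 *Mog* nuclei and of 35234 barcodes kept. They were compared with Grm3-type nuclei, which had at least 1 *Grm3* UMI and no *Opalin* UMI and numbered 2194.

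The study prepared nuclei from VTA punches of adult male Sprague-Dawley rats, with 1 droplet library for each of 5 rats. All 5 rats form 1 group, which the labels call saline and the study elsewhere calls drug-naïve, so no treatment was compared. No transgene or deletion is stated for these rats. Both types of nuclei in a rat come from the same animal and library.

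Oligodendrocytes wrap axons in myelin, a stack of membrane rich in cholesterol and in the basic protein encoded by *Mbp*. They arise from precursors marked by *Pdgfra*, pass through a short newly formed stage with *Tcf7l2* and *Enpp6*, and then express *Mog*, a glycoprotein of the outer myelin surface. *Opalin* encodes a transmembrane protein of the oligodendrocyte that is found at the paranodal loops of myelin, and *Grm3* encodes a metabotropic glutamate receptor.

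Library totals ran from 10193355 to 88576210 UMIs and barcodes kept from 2733 to 18927 per rat. Rat 3 had the smallest library and no Opalin-type nucleus. Of the barcodes kept, 111 occurred in more than 1 library, 6 of them in *Mog* nuclei of more than 1 rat, and 0 Opalin-type nuclei had a barcode kept in another library. Of 11 oligodendrocyte markers other than *Mog*, 10 were higher in Opalin-type nuclei than in nuclei that were not *Mog* nuclei in 4 of the 4 rats with members.

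By the rule, Opalin-type nuclei were a small minority of the *Mog* nuclei. Their share moved with the cut-off, at a mean of 2.09% with at least 1 *Opalin* UMI and 0.309% with at least 4. They made up 2.06% of *Mog* nuclei in rat 1 (8 of 388), 1.25% in rat 2 (35 of 2792), 0.174% in rat 4 (5 of 2870) and 0.53% in rat 5 (9 of 1697). Rat 3 had 0 of 184, for which the exact 95% binomial interval reaches 1.98% and covers counting error only. The mean share was 0.804% ± 0.852 (SD, n = 5 rats). Over all rats, 5311 of 7931 *Mog* nuclei (67%) held at least 1 UMI of both genes, 2194 (27.7%) were Grm3-type, 295 (3.72%) held neither gene, and 74 (0.933%) had 1 *Opalin* UMI and no *Grm3*. Rats differed, with UMIs of both genes in 59.8% ± 24.2 (SD, n = 5 rats) and as few as 17.4% in rat 3, where 63.6% were Grm3-type. At the rule's own minimum of 2 *Opalin* UMIs, 3443 nuclei (43.4%) also held *Grm3*, beside the 57 that did not. *Grm3* was at 3.45 to 13.4 and *Opalin* at 0.967 to 2.4 UMIs per 10000 in free RNA, that is, in barcodes under 100 UMIs, and the part of free RNA in these shares was not tested. In nuclei that were not *Mog* nuclei, at a median of 1047 UMIs, 29.5% held a *Grm3* UMI and 15.2% an *Opalin* UMI. Most *Mog* nuclei that met the *Opalin* minimum thus held *Grm3* too, and the name Opalin-type stands here only for the rule.

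**Figure D1:**
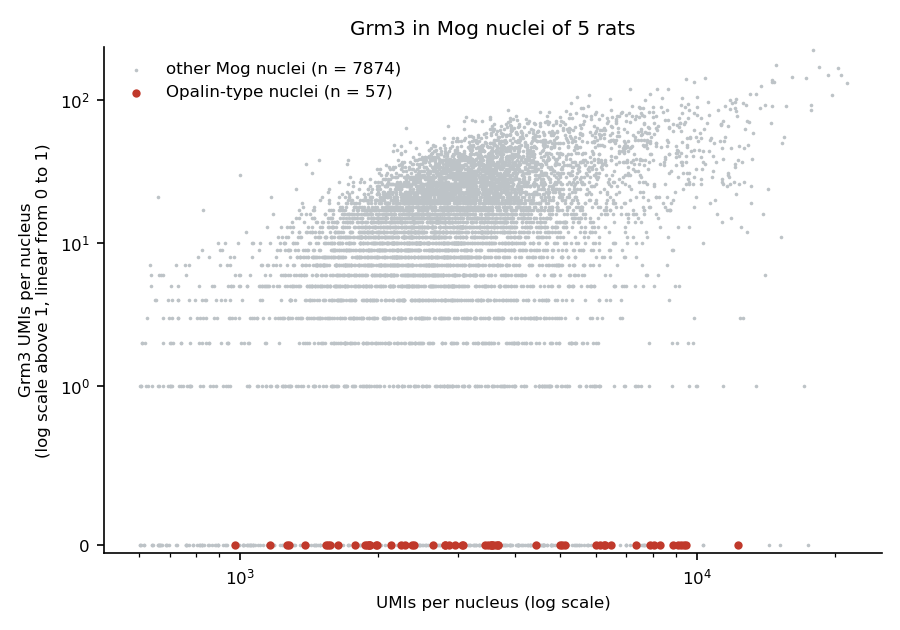
*Grm3* UMIs against the UMI total of each *Mog* nucleus of 5 rats, with the 57 Opalin-type nuclei in red and the 7874 other *Mog* nuclei in grey. *Grm3* UMIs rise with the total in the grey nuclei, while the red nuclei lie at 0 by the rule, with totals from 974 to 12267 UMIs.

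Nuclei around the members in depth mostly held *Grm3*. The members' median UMI total was 1742.5 in rat 1, 3057 in rat 2, 6472 in rat 4 and 6013 in rat 5, against 2648, 2592, 3000 and 2490.5 in Grm3-type nuclei of the same rats. The log2 ratio of the medians averaged 0.5 ± 0.867 (SD, n = 4 rats) and was above 0 in 3 of 4 rats (p = 0.375 by an exact permutation of signs over rats, two-sided, for which 4 rats cannot give a p below 0.125). Other *Mog* nuclei whose total lay up to 25% above the members' median, or below it by the same factor, had a median of 3 *Grm3* UMIs in rat 1, 12 in rat 2, 30.5 in rat 4 and 18 in rat 5. In rat 1, 26.7% of those nuclei also had no *Grm3* UMI, whereas in the other rats with members 5.04 to 5.43% had none. With every nucleus thinned to 600 UMIs, Opalin-type nuclei had a median of 451, 434, 420 and 435 genes in rats 1, 2, 4 and 5, and Grm3-type nuclei 469, 437, 433 and 438. The difference averaged -9.25 genes ± 7.5 (SD, n = 4 rats) and was below 0 in 4 of 4 rats (exact permutation p = 0.125, which 4 rats cannot go below). Against nuclei with at least 2 *Grm3* UMIs it averaged -4.88 (exact permutation p = 0.375), and with no UMI of the other-type genes -7.88 (exact permutation p = 0.25).

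The genes of the rule are given as a description. *Opalin* in Opalin-type nuclei was at 11.9, 9.91, 12.2 and 7.95 UMIs per 10000 in rats 1, 2, 4 and 5, and 24 of the 57 nuclei had exactly 2 *Opalin* UMIs, the least that the rule admits. Just outside the rule lay the 74 nuclei with 1 *Opalin* UMI and no *Grm3* UMI and the 33 nuclei with at least 2 *Opalin* UMIs and 1 *Grm3* UMI. *Mog* was at 17.5 to 19.3 UMIs per 10000 in Opalin-type and at 20.3 to 27.9 in Grm3-type nuclei of the 5 rats. In the 3443 nuclei with at least 2 *Opalin* UMIs and *Grm3*, *Opalin* was at 10.8 ± 2.65 per 10000 (SD, n = 5 rats). It was at 8.56, 9.82, 9.35 and 10.8 in rats 1, 2, 4 and 5 and at 15.3 in rat 3, from 3 nuclei. Both groups share the minimum of 2 *Opalin* UMIs, so a like level is tied to the rule. These nuclei served as a further comparison group, added after the values were seen. The markers given for these nuclei beside the genes of the rule were *Plekhg3* and *Jhy*, and neither was higher in them past the threshold. *Plekhg3*, which encodes a guanine nucleotide exchange factor, was at 4.27, 3.78, 5.38 and 2.19 UMIs per 10000 in Opalin-type nuclei of rats 1, 2, 4 and 5 and at 3.73, 2.79, 3.12 and 2.91 in Grm3-type nuclei (log2 fold change 0.3 ± 0.279 SE, edgeR adjusted p = 0.638). *Jhy* was at 5.69 in rat 1 but at 0.551, 0.597 and 0.398 in rats 2, 4 and 5, against 3.46, 2.7, 3.2 and 1.79 in Grm3-type nuclei (log2 fold change -1.3 ± 0.458 SE, adjusted p = 0.0792). In rat 1, 11 of the *Jhy* UMIs came from 1 nucleus and 1 from another. *Jhy* lay below the Grm3-type value in the 3 rats other than rat 1, and its log2 fold change against nuclei with at least 2 *Opalin* UMIs and *Grm3* was -1.75 (adjusted p = 0.00107).

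For the test across genes, UMIs were summed per rat and type and fitted with the quasi-likelihood test of edgeR with the rat as a block. Because rat 3 had no member, 8 sums of 4 rats entered, and a gene was called at an adjusted p under 0.05. The genes of the rule were kept out of the calls. Of 3117 other genes tested, 347 (11.1%) differed between Opalin-type and Grm3-type nuclei, with 185 (5.94%) higher and 162 (5.2%) lower in Opalin-type nuclei. Of these 347 genes, 321 had the same direction in 4 of 4 rats, and the median log2 fold change of all genes tested was -0.1. The filter on low counts asked for enough UMIs in at least 4 of the 8 sums. A gene under its minimum in all sums of 1 type thus passed only with all 4 sums of the other type. The direction of such a gene in 4 of 4 rats was set by the filter. A difference between sums cannot tell a larger share of nuclei with a transcript from more transcript in each nucleus. The counts rested on few nuclei and on the filter. With no filter, 18387 genes were tested, and 92 of the 185 higher and 159 of the 162 lower genes were still called. With the deepest Opalin-type nucleus of each rat left out they were 92 higher and 69 lower, without rat 1 they were 245 and 280 of 7870 genes tested, without rat 2 115 and 84 of 2547, without rat 4 134 and 69 of 3235, and without rat 5 122 and 111 of 3209. Against the nuclei with at least 2 *Opalin* UMIs and *Grm3*, 338 of 8425 genes differed (4.01%), 155 of them higher (1.84%) and 183 lower (2.17%). Both comparisons use the same Opalin-type sums, so the second is no independent check of the first.

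The genes named for the largest rises had from 8 (*Tns1*) to 277 (*Tnik*) UMIs in the Grm3-type sums of the same 4 rats. At these levels they could pass the filter on low counts only with their Opalin-type sums, so that their low level in Grm3-type nuclei is in part set by the filter, and the size of a fold change is limited by these counts. *Rras2*, a small GTPase of the Ras family, was at 39.3, 23.8, 25.7 and 33.2 UMIs per 10000 in Opalin-type nuclei of rats 1, 2, 4 and 5, and at 0.213, 0.254, 0.211 and 0.267 in Grm3-type nuclei. The log2 fold change was 6.89 ± 0.31 SE (edgeR adjusted p = 1.24e-11). The change was 4.96 on the log2 scale (adjusted p = 2.14e-44) against nuclei with at least 2 *Opalin* UMIs and *Grm3*, in which *Rras2* was at 0 to 0.988 over the 5 rats. *Rras2* was also on the list of newly formed oligodendrocyte genes. *Tns1*, which encodes the focal adhesion protein tensin 1, rose by 7.66 ± 0.528 SE on the log2 scale (adjusted p = 3.76e-09), from 0.0037 to 0.0533 per 10000 in Grm3-type nuclei to 2.36 to 4.18. *Afap1l2* had 11 and *Rasgef1b* 27 UMIs in the Grm3-type sums. *Rasgef1b*, an exchange factor of Ras-family GTPases, rose by 5.61, *Afap1l2*, an actin filament-associated adaptor, by 6.87, and *Dock6*, an exchange factor of Rac and Cdc42, by 4.14.

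Further genes with large rises included a protocadherin, a mannosidase and a kinase. *Pcdh17*, the protocadherin, was at 7.11, 7.31, 14.3 and 10.5 UMIs per 10000 in Opalin-type nuclei of rats 1, 2, 4 and 5 and at 0.1 to 0.426 in Grm3-type nuclei (log2 fold change 5.92 ± 0.397 SE, adjusted p = 2.64e-09). *Man1a1*, the Golgi mannosidase that trims N-glycans, was at 5.21, 8.1, 7.47 and 10.3 against 0 to 0.159 (6.14 ± 0.349 SE, adjusted p = 3.9e-10). *Tnik*, the kinase that activates Tcf and Lef transcription in Wnt signalling, was at 16.6, 12.7, 25.4 and 24.3 against 0.327 to 1.28 (5.18 ± 0.371 SE, adjusted p = 5.96e-09). *Pcdh17*, *Man1a1* and *Tnik* were named for large rises in every rat, so the gap between their levels is a description and no further support. *Sez6l*, a transmembrane protein of the seizure-related family, was at 11.4 in rat 1 and at 3.38 to 4.56 in rats 2, 4 and 5, against 0.0482 to 0.16 (5.57, adjusted p = 1.75e-09). *Nckap5* spread most among rats, at 27, 6.69, 1.79 and 7.95 in rats 1, 2, 4 and 5 against 0.119 to 0.426 (5.13, adjusted p = 1.82e-09). The other genes named as higher were *Adam11* (5.51), *Agbl1* (5.86), *Tmem178a* (5), *St8sia3* (4.68), a sialyltransferase, and *Gas7* (4.64), each given as log2 fold change.

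**Figure D2:**
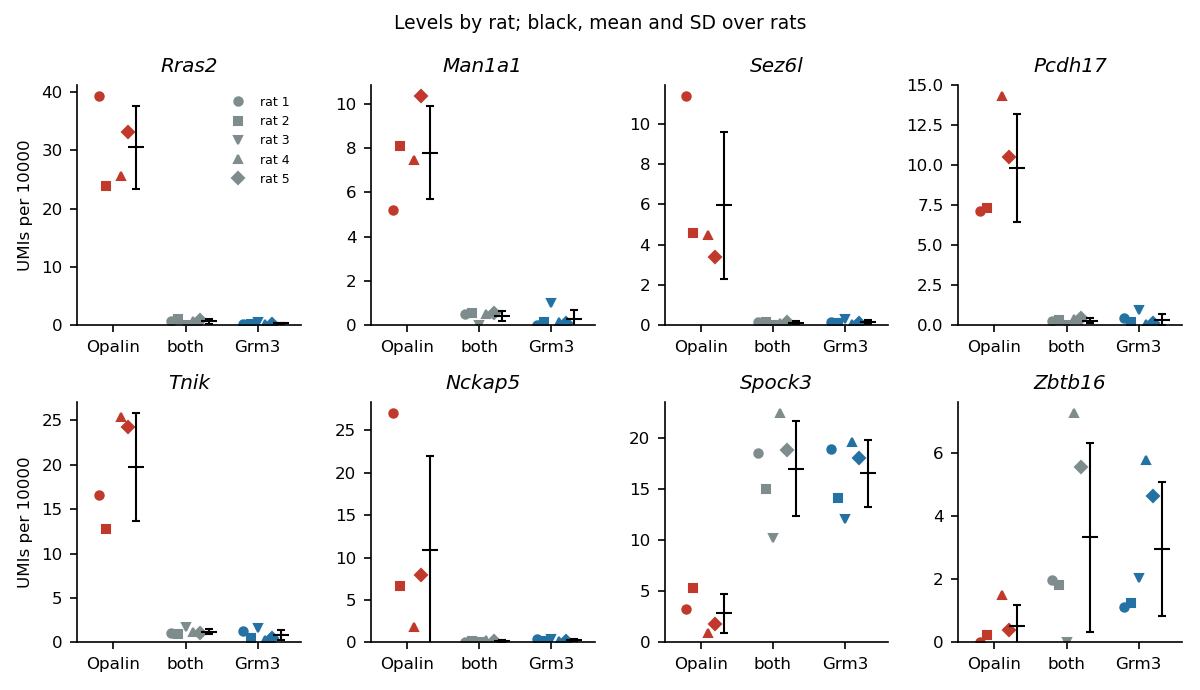
UMIs per 10000 of 8 named genes in Opalin-type nuclei (red), nuclei with at least 2 *Opalin* UMIs and *Grm3* (both, grey) and Grm3-type nuclei (blue), with 1 symbol per rat and the mean and SD over rats in black. The 6 higher genes lie above all grey and blue points in each rat with members, and *Spock3* lies below them. Genes were named only with the same direction against Grm3-type nuclei in every rat with members, so the gap from the blue points is tied to their choice. Rat 3 has no red point, and its grey point rests on 3 nuclei.

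Most genes named as lower in Opalin-type nuclei were at or near 0 UMIs there, so that the counts limit their fold changes. Such genes could pass the filter only with their Grm3-type sums, so that their high level in Grm3-type nuclei is in part set by the filter. *Spock3*, a secreted proteoglycan, was at 3.32, 5.35, 0.896 and 1.79 UMIs per 10000 in rats 1, 2, 4 and 5 and at 19, 14.2, 19.6 and 18 in Grm3-type nuclei (log2 fold change -2.59 ± 0.371 SE, adjusted p = 6.99e-05). *Megf10*, a receptor for the engulfment of cell debris, was at 0 to 1.42 against 4.02 to 6.61 (-2.71 ± 0.448 SE, adjusted p = 0.000347). *Zbtb16*, a zinc finger transcription factor, was at 0 to 1.49 against 1.12 to 5.8 (-2.61, adjusted p = 0.000312). Its ranges thus overlapped across rats although it was lower within each rat, which the choice of named genes asked for. *Dgki*, a diacylglycerol kinase, was at 0, 1.65, 0.299 and 1.99 against 5.64 to 9.81 (-2.54, adjusted p = 0.000439). *Rasgrp3*, a further exchange factor for Ras, went the other way from *Rasgef1b*, with a log2 fold change of -2.29 (adjusted p = 0.00156). The others named as lower were *Prrg1* (-2.78), *Greb1l* (-2.74), *Myo1e* (-2.66), *Nln* (-2.54), *Gsta6* (-2.47), *Fam171a1* (-2.46), *Trpm3* (-2.42), *Ankub1* (-2.41), *Bace2* (-2.38) and *Atp10a* (-2.37), with 3 to 25 UMIs each in all Opalin-type nuclei. *Greb1l* (adjusted p = 0.291), *Nln* (adjusted p = 0.119) and *Bace2* (adjusted p = 0.818) were not called against nuclei with at least 2 *Opalin* UMIs and *Grm3*.

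Myelin genes changed in part. Of 21 tested genes of compact myelin and other myelin proteins, 4 were higher and 2 lower, beside 5.94% higher and 5.2% lower of all genes, with a median log2 fold change of 0.33 beside -0.1 for all genes. The gene with the largest rise was *Nfasc*, whose product neurofascin joins glial loops to the axon at the paranode, at 47.9, 40.3, 73.2 and 57.1 UMIs per 10000 in Opalin-type nuclei of rats 1, 2, 4 and 5 against a mean of 5.25 ± 0.86 (SD, n = 4 rats) in Grm3-type nuclei (log2 fold change 3.37 ± 0.238 SE, adjusted p = 4.25e-09). *Tspan2*, a tetraspanin of myelin, rose by 1.97 (adjusted p = 1.68e-05), *Sirt2*, a deacetylase of myelin, by 1.8 (adjusted p = 0.000128), and *Mag*, the adhesion protein of the innermost myelin layer, by 1.15 (adjusted p = 0.00267). Against nuclei with at least 2 *Opalin* UMIs and *Grm3*, *Nfasc* and *Sirt2* passed and *Tspan2* (adjusted p = 0.384) and *Mag* (adjusted p = 0.0506) did not. *Mag* also missed the threshold with no filter (log2 fold change 0.78, adjusted p = 0.307), with at least 1 *Opalin* UMI (0.65, adjusted p = 0.0819) and with the deepest nuclei left out (1.09, adjusted p = 0.0543). *Hapln2*, a link protein of the nodal matrix, fell by 1.92 on the log2 scale and *Anln*, the actin-binding protein anillin, by 1.63. Both were at or near 0 in Opalin-type nuclei of rats 1 and 4 and could pass the filter only with their Grm3-type sums. The count of lower myelin genes is thus in part set by the filter. *Mbp*, among the most abundant of the list, did not pass, at 101.8 ± 12.2 UMIs per 10000 in Opalin-type and 76.4 ± 3.56 in Grm3-type nuclei (SD, n = 4 rats; adjusted p = 0.241). Of 25 tested genes of myelin lipid and cholesterol synthesis, 0 passed by edgeR and 0 by DESeq2, with 3 at an unadjusted p under 0.05, all lower, and a median log2 fold change of -0.04, where 11.1% of all genes were called.

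Few genes of the newly formed stage were tested and some of these were higher, while precursor genes were not tested for lack of UMIs. Of 23 genes on the list of precursor and newly formed oligodendrocytes, 8 were tested, of which 4 were higher and 1 lower (5.94% and 5.2% of all genes), with 4 higher and 3 lower at an unadjusted p under 0.05 and a median log2 fold change of 1.07. *Rras2* and *Tcf7l2* were so low in Grm3-type nuclei that they could pass the filter only with their Opalin-type sums. The counts and the median of this list are thus in part set by the filter. Beside *Rras2*, the higher genes were *Tcf7l2*, *Fyn* and *Tmem163*. *Tcf7l2*, a Wnt transcription factor, was at 6.64, 3.22, 5.08 and 3.98 UMIs per 10000 in rats 1, 2, 4 and 5 against a mean of 0.307 ± 0.0763 (SD, n = 4 rats) in Grm3-type nuclei (3.68 ± 0.325 SE, adjusted p = 1.28e-07). *Fyn*, a kinase that acts in the start of myelination, rose by 2.1 (adjusted p = 4.38e-05), and *Tmem163*, a zinc transporter, by 1.71 (adjusted p = 0.000657). *Bcas1*, which marks early myelinating cells, was lower at 11.2 ± 3.87 against 21 ± 4.33 (SD, n = 4 rats; log2 fold change -0.91, adjusted p = 0.0243). *Cemip2*, a cell surface hyaluronidase, was not tested and ran unevenly at 44.1, 3.54, 0.299 and 16.3 in rats 1, 2, 4 and 5. *Enpp6* was at 5.69, 1.57, 0 and 2.58 against 4.85, 3.61, 3.9 and 3.45 in Grm3-type nuclei and was not called, *Gpr17*, a receptor of committed precursors, had a UMI in 1 of 57 nuclei, and *Bmp4* in 3 of 57.

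Precursor markers were low in Opalin-type nuclei. The 4 precursor markers beside *Pdgfra*, a gene of the rule, summed to 0.896 to 2.37 UMIs per 10000 in them, to 1.38 to 3.47 in Grm3-type nuclei and to 50 to 92.9 in 254 nuclei with *Pdgfra* and no *Mog*. *Rras2* was at 0.435 ± 0.123 (SD, n = 5 rats) in those precursor nuclei, below every value in Opalin-type nuclei. *Tcf7l2* was at 1.6 ± 0.194 in them, also below every value in Opalin-type nuclei.

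**Figure D3:**
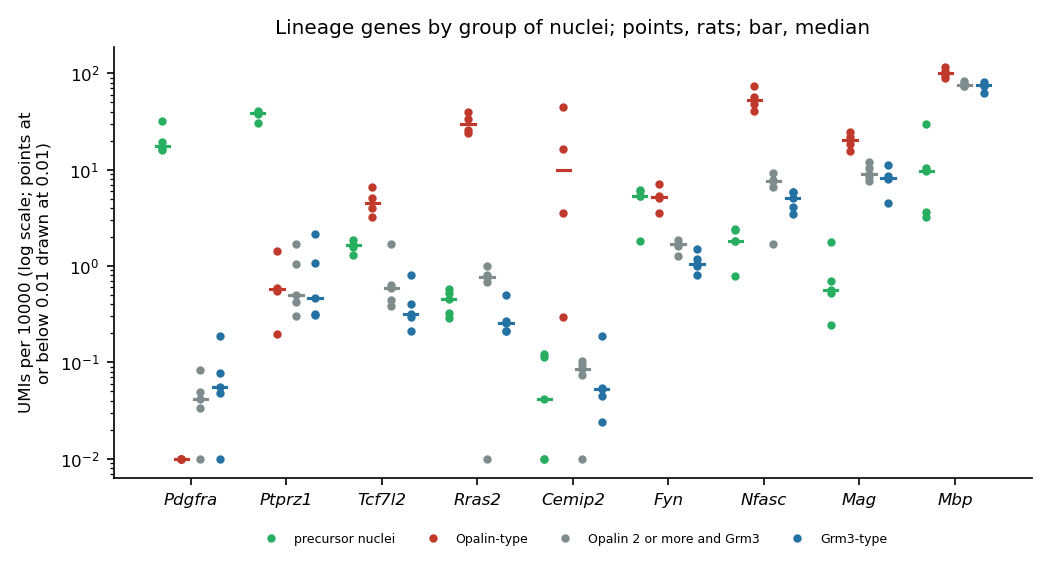
UMIs per 10000, on a log scale, of 9 lineage genes in precursor nuclei (green), Opalin-type nuclei (red), nuclei with at least 2 *Opalin* UMIs and *Grm3* (grey) and Grm3-type nuclei (blue), with 1 point per rat and the median as a bar. *Pdgfra* and *Ptprz1* are high in precursor nuclei, whereas *Rras2*, *Tcf7l2* and *Nfasc* are highest in the Opalin-type nuclei. Levels are compared within a gene, not between genes.

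Of 12 tested oligodendrocyte transcription factors, 4 were higher and 1 lower (5.94% and 5.2% of all genes), with a median log2 fold change of 0.59. *Tcf7l2* counts among the higher, although it could pass the filter only with its Opalin-type sums. The higher were *Tcf7l2*, *Creb5* at 19.4, 16.5, 44.2 and 19.1 UMIs per 10000 in rats 1, 2, 4 and 5 against a mean of 5 (log2 fold change 2.22, adjusted p = 3.52e-06), *Zfp536* (1.26, adjusted p = 0.00361) and *Sox2* (1.22, adjusted p = 0.0157), the last higher in 3 of 4 rats. *Nfib* was lower (-1.34, adjusted p = 0.0332). Of 12 tested genes that separate mature oligodendrocyte subtypes in the mouse, 0 were higher and 5 lower by edgeR and by DESeq2, beside 5.94% higher and 5.2% lower of all genes by edgeR, with 0 and 7 at an unadjusted p under 0.05, and a median of -0.98. These were the lipocalin gene *Apod* (-1.23), the myelin gene *Pmp22* (-1.9), the exchange factor gene *Dock5* (-1.9), the inositol transporter gene *Slc5a11* (-1.82) and the splicing factor gene *Rbfox1* (-1.82). *Apod*, the most abundant of them, was at 13.3, 21.8, 3.58 and 11.9 UMIs per 10000 in Opalin-type nuclei of rats 1, 2, 4 and 5 and at 27.3 ± 5.6 (SD, n = 4 rats) in Grm3-type nuclei (adjusted p = 0.00749). *Pmp22* and *Slc5a11* were so low in Opalin-type nuclei that they could pass the filter only with their Grm3-type sums. The counts and the median of this list of subtype genes are thus in part set by the filter.

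Adhesion genes moved in both directions, and the guidance genes called were all higher. Of 41 adhesion genes, 26 had enough UMIs to be tested. Of these 26, 7 were higher and 5 lower (5.94% and 5.2% of all genes), with a median log2 fold change of -0.52. A gene low in 1 type could be tested only with its sums of the other type, as *Pcdh17* was with its Opalin-type sums. These counts are thus in part set by the filter. *Cntn1*, which encodes an adhesion protein of the axon and of oligodendrocytes, was at 17.5, 13.3, 14 and 8.15 UMIs per 10000 in rats 1, 2, 4 and 5 against a mean of 0.74 ± 0.144 (SD, n = 4 rats) in Grm3-type nuclei (4.06 ± 0.306 SE, adjusted p = 1.21e-08). *Lsamp* (2.05), *Kirrel3* (2.04), *Lrrc7* (1.94), *Nectin1* (1.36) and *Pcdh9* (1.08) were higher beside *Pcdh17*. *Negr1* (-2.12), *Tenm4* (-1.86), *Cdh19* (-1.4) and *Lrrtm3* (-1.35) were among the lower, of which *Cdh19* was lower in 3 of 4 rats. Of 40 axon guidance genes, 11 had enough UMIs to be tested, and the same limit of the filter holds for their counts. Of these 11, 4 were higher and 0 lower by edgeR and by DESeq2, beside 5.94% higher and 5.2% lower of all genes by edgeR, with 7 and 0 at an unadjusted p under 0.05, and a median of 0.72. The 4 higher were the Slit receptor gene *Robo2* (2.86) and the semaphorin genes *Sema6a* (2.5), *Sema6d* (2.07) and *Sema4d* (1.84). Each of the 4 was higher in 4 of 4 rats, although *Robo2* ran from 0.795 in rat 5 to 8.66 UMIs per 10000 in rat 4 and *Sema6a* from 1.49 in rat 4 to 14.2 in rat 1. For a gene low in all Grm3-type sums, the filter in part sets this direction too.

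**Figure D4:**
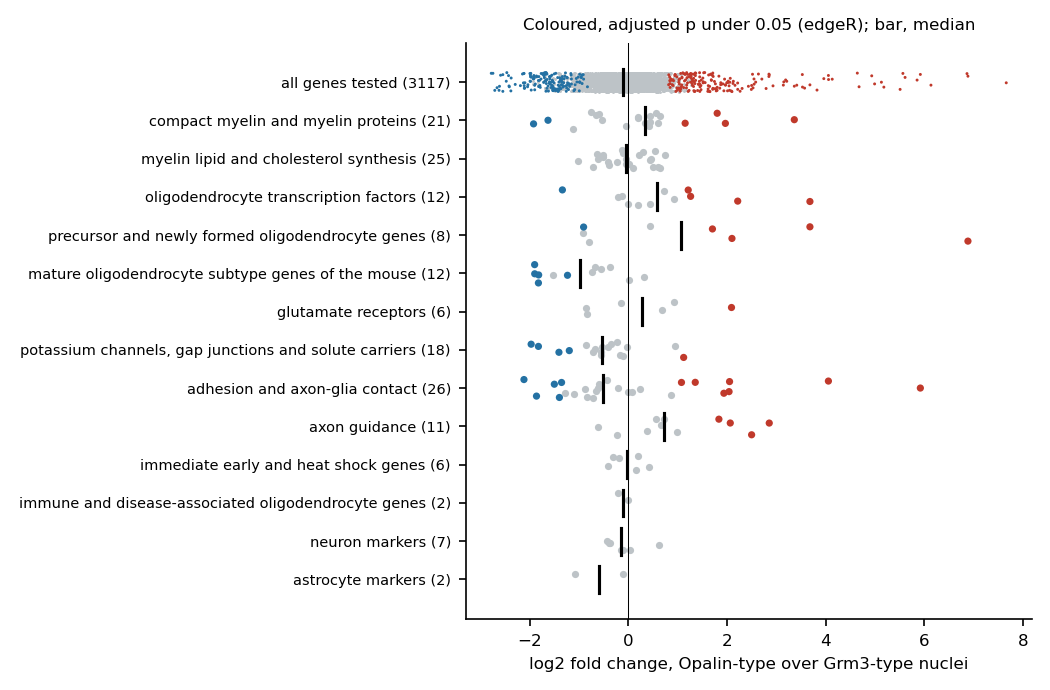
Log2 fold change of Opalin-type over Grm3-type nuclei for all 3117 genes tested and for each gene list with a tested gene, with the number tested in parentheses and the median as a bar. Red and blue points are genes called higher and lower by edgeR, grey points genes not called, and the lipid, immediate early, immune, neuron and astrocyte lists hold no coloured point.

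Of 18 tested channel, gap junction and carrier genes, 1 was higher and 4 lower, with a median of -0.54, beside 5.94% higher and 5.2% lower of all genes. *Slc24a2*, a sodium, calcium and potassium exchanger, fell by 1.2 on the log2 scale, from 40 ± 8.86 to 16.8 ± 3.06 UMIs per 10000 (SD, n = 4 rats; adjusted p = 0.00364). The mitochondrial aspartate and glutamate carrier *Slc25a13* (-1.97), the inositol transporter *Slc5a11* (-1.82) and the organic anion transporter *Slco3a1* (-1.41) were lower too. *Slc5a11* could pass the filter only with its Grm3-type sums, so the count of lower genes here is in part set by the filter. The sodium and calcium exchanger *Slc8a1* was higher (1.12, adjusted p = 0.00669), a call that was lost with no filter (adjusted p = 0.388), with at least 1 *Opalin* UMI (0.808), with nuclei thinned to 1000 UMIs (0.358) and without rat 4 (0.0584). *Lrrc7* was not called without rat 4 either (adjusted p = 0.0611). Against nuclei with at least 2 *Opalin* UMIs and *Grm3*, *Slc8a1* (adjusted p = 0.892) and *Lrrc7* (adjusted p = 0.982) were not called and had log2 fold changes of -0.23 and -0.08. Further genes of the lists not called there were *Anln* (adjusted p = 0.103), *Sox2* (0.531), *Zfp536* (0.412), *Lsamp* (0.207), *Nectin1* (0.238), *Pcdh9* (0.852) and *Tenm4* (0.691), each in the same direction as against Grm3-type nuclei. No call was made by edgeR or DESeq2 among 6 tested immediate early and heat shock genes (median -0.02) or 2 tested immune genes (median -0.11), and 0 of them had an unadjusted p under 0.05. Lists this short would hold few calls at the 11.1% of all genes.

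Markers of other cell types were summed per rat, and neuron markers were highest in rat 1. None of 7 tested neuron markers or 2 tested astrocyte markers was called by edgeR or DESeq2, with 0 and 1 at an unadjusted p under 0.05 and medians of -0.15 and -0.6, and no microglial or vascular marker had enough UMIs to be tested. The 14 neuron markers outside the rule summed to 35.1 UMIs per 10000 in Opalin-type nuclei of rat 1 and to as little as 3.88 in other rats, against 7.75 to 21.6 in Grm3-type and 55.9 to 87.4 in nuclei that were not *Mog* nuclei. The astrocyte markers outside the rule summed to 0.597 to 8.53 UMIs per 10000 in Opalin-type and 3.94 to 9.59 in Grm3-type nuclei, and vascular markers to 0.199 to 0.474 and 0 to 0.263. Microglial markers summed to 0.474, 0.708, 0.597 and 2.19 in Opalin-type nuclei of rats 1, 2, 4 and 5, against 0.315 to 0.888 in Grm3-type nuclei and 0.782 to 3.31 in nuclei that were not *Mog* nuclei, and their part in the values of rat 5 was not tested. Of these lists, 1 neuron marker (*Grin2b*), 1 astrocyte marker (*Aldh1l1*), 2 microglial markers (*P2ry12* and *Tmem119*) and 2 vascular markers (*Pdgfrb* and *Vtn*) had 0 UMIs in the 57 nuclei. Free RNA, estimated from neuron markers, came to 47.2% of the UMIs of Opalin-type nuclei in rat 1, 26.8% in rat 2, 7.07% in rat 4 and 15.5% in rat 5, and to 14.1 to 34.5% in Grm3-type nuclei. The median mitochondrial share of UMIs was 2.64% in Opalin-type and 0.663% in Grm3-type nuclei of rat 1, and 1.25, 0.253 and 0.517% against 1.32, 0.269 and 0.681% in rats 2, 4 and 5. With free RNA subtracted, 186 genes were higher and 181 lower of 2380 tested, of which 174 and 151 were also called without the subtraction. The part of free RNA and of the mitochondrial share in the values of rat 1 was not tested.

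The members did not share the raised genes evenly. *Rras2* was detected in 24 of 57 Opalin-type nuclei, 1 of 8 in rat 1, 14 of 35 in rat 2, 4 of 5 in rat 4 and 5 of 9 in rat 5, with 1 to 83 UMIs and a median of 17. It was not detected in the other 33. Splitting the members by *Rras2* was done after the values were seen, so what follows is a description with no test. Of 6 genes named as higher, *Rras2*, *Man1a1*, *Sez6l*, *Pcdh17*, *Tnik* and *Nckap5*, 30 nuclei had a UMI of none and 4 of only 1, while 10 nuclei had UMIs of all 6, 6 nuclei of 5, 4 nuclei of 4 and 3 nuclei of 3. No nucleus had UMIs of exactly 2 of them. In rat 1, 1 nucleus of 7365 UMIs held all of that rat's member UMIs of *Rras2* (83), *Man1a1* (11), *Sez6l* (24), *Pcdh17* (15), *Nckap5* (57) and *Tcf7l2* (14) and all but 1 of those of *Tnik* (34). The same nucleus held all 93 *Cemip2*, 35 *Cntn1* and 77 *Nfasc* UMIs, while the other 7 members of rat 1 together had 2 of *Cntn1* and 24 of *Nfasc*. The rat 1 values of these genes thus rest on 1 nucleus, that of *Nfasc* for the most part. In rat 4, 1 nucleus of 12267 UMIs held all 48 *Pcdh17* and all 6 *Nckap5* UMIs of that rat's members. It also held 74 of their *Rras2* UMIs, the other nuclei at most 8 each. In rat 5, 1 nucleus of 8313 UMIs held 47 *Pcdh17*, 34 *Nckap5* and 81 *Cemip2* UMIs, and no other member there had more than 6, 5 and 1.

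The 2 sets of members differed in much else. The 24 nuclei with *Rras2* had a median of 6193 UMIs and 0.624% mitochondrial UMIs, and the 33 without it 2294 UMIs and 2.13%. *Nfasc* was at 74.2 UMIs per 10000 of the summed nuclei with *Rras2* and at 6.14 of those without, *Cntn1* at 19.5 and 0.826, *Tcf7l2* at 6.11 and 0.236 and *Cemip2* at 15 and 0. *Spock3* was at 1.02 and 8.5, *Rbfox1* at 0.204 and 3.19 and *Mbp* at 104.5 and 95.6. *Jhy* had 0 UMIs in the 24 nuclei with *Rras2* and was at 2.72 per 10000 in the 33 without, where 9 nuclei held it. The nuclei without *Rras2* thus lay near the Grm3-type level of *Nfasc* and *Cntn1*, and *Man1a1*, *Sez6l*, *Pcdh17* and *Nckap5* had no UMI in any of the 33.

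**Figure D5:**
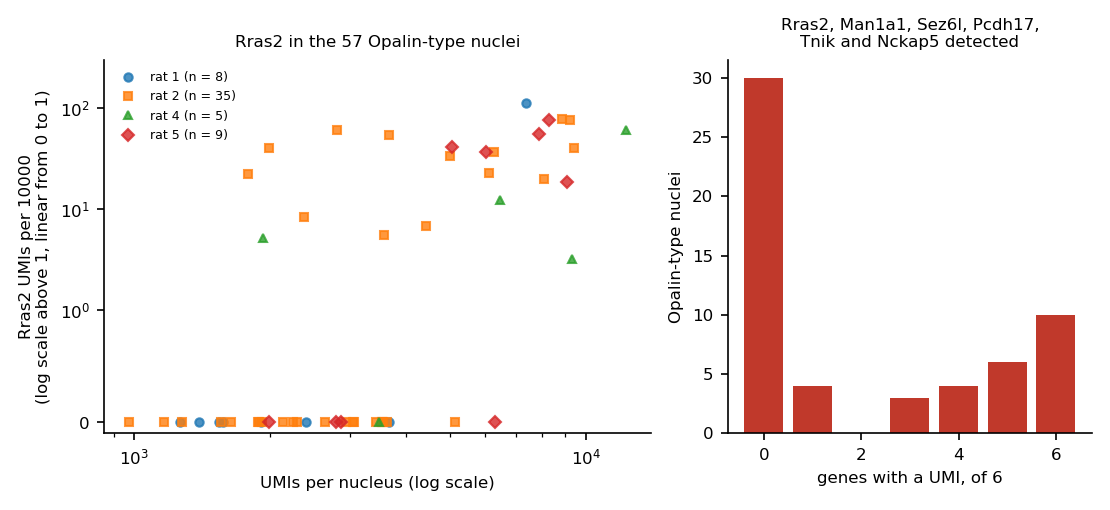
Left, *Rras2* UMIs per 10000 against the UMI total of each of the 57 Opalin-type nuclei, with 1 symbol per rat and both axes on a log scale (linear from 0 to 1 for *Rras2*). Right, the number of nuclei by how many of 6 raised genes had a UMI. *Rras2* is at 0 in 33 nuclei, most of them shallow, and the 6 genes were detected either in at most 1 or in 3 or more per nucleus.

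*Rras2* is given here at equal depth as a description with no test, since it was named for its rise in the same nuclei. With each nucleus thinned to 1000 UMIs, *Rras2* was detected in 12.5, 35.3, 40 and 55.6% of Opalin-type nuclei of rats 1, 2, 4 and 5, and in 2.22, 1.57, 1.63 and 1.61% of Grm3-type nuclei. These shares are of 8, 34, 5 and 9 Opalin-type nuclei, with 1 Opalin-type and 35 Grm3-type nuclei left out as too shallow. The difference averaged 34.1 percentage points ± 18.1 (SD, n = 4 rats), and the share of rat 1 rests on 1 nucleus of 8. Without thinning, *Rras2* was detected in 42.1% of Opalin-type nuclei (median 3072 UMIs), 5.42% of Grm3-type nuclei (median 2671 UMIs) and 9.01% of nuclei that were not *Mog* nuclei (median 1047 UMIs).

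Nuclei rich in *Rras2*, with at least 3 UMIs and at least 10 per 10000, also occurred outside the members. They numbered 48 of 7931 *Mog* nuclei, of which 19 were Opalin-type (33.3% of the 57), 23 held both *Opalin* and *Grm3* (0.433% of 5311), 2 were Grm3-type (0.0912% of 2194), 2 had 1 *Opalin* UMI and no *Grm3*, and 2 had neither. The 29 outside the members had UMIs of *Man1a1* in 89.7%, *Tnik* in 86.2% and *Sez6l* in 75.9%, against 5.91%, 14.1% and 2.43% of the 7845 *Mog* nuclei that were neither members nor rich in *Rras2*. Their median totals were 6672 and 2953 UMIs. *Nfasc* was at 54.5 UMIs per 10000 of the 29 nuclei summed against 6.27, *Spock3* at 3.38 against 18.1 and *Jhy* at 0.434 against 3.06. *Grm3* was at 23.5 against 57 and *Opalin* at 9.45 against 5.51. Of these 29 nuclei, which the rule leaves out, 86.2% held a *Grm3* UMI. These 29 and the rich members are described, not tested, since they were picked by a gene that the comparison had called.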

How the data were processed

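The deposited files hold raw UMI counts of each gene in all barcodes, as unfiltered 10x Genomics matrices that the authors had not normalized. The submitters' processing notes name Cell Ranger 8.0.1, the matrix headers software version 4, and the genome build is not given in the sources used here. Genes carry the names of the files. The nuclei and gene lists were chosen with earlier results of these data known.

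Here, nuclei were filtered by the rule given above with no clustering and no doublet caller. UMI counts were summed per rat and type and tested with edgeR 4.0.16 (TMM, filterByExpr, robust quasi-likelihood, rat as block, Benjamini-Hochberg) in R 4.3.3. An SE given with a log2 fold change is its absolute value over the square root of the F statistic of this test. It is not an SD over rats. The fit was tried on simulated sums with the same totals, drawn from 1 profile shared by all rats with a fixed spread. They held no single nuclei, so this trial does not cover sums that rest on few nuclei. DESeq2 1.42.0 was an alternative. Levels are UMIs per 10000 of the summed nuclei. The study's labels name the animals as separate samples. The pairing comes from the shared animal and library. Deviations of same-rat sums from the type means correlated at 0.068, 0.302, 0.384 and 0.122 in rats 1, 2, 4 and 5. Single values over rats were tested with exact sign-flip permutation tests in Python 3.11.15 with scipy 1.17.1.

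Named genes were up to 15 higher and 15 lower ranked by absolute log2 fold change among the genes called, with the same direction in every rat with members (the rule asked for 5 rats, and 4 had members) and at least 0.5 UMIs per 10000 in the higher type, together with *Plekhg3* and *Jhy* and, per list, up to 4 called genes in each direction and the most abundant. Further called list genes, the *Rras2* groups and the *Cemip2*, *Enpp6*, *Gpr17* and *Bmp4* values were chosen after values were seen. Alternatives were other *Opalin*, *Grm3* and UMI minimums, matched or thinned totals, free RNA subtraction, DESeq2 and its size factors, no filter, no block and each rat left out. Binomial intervals are exact (Clopper-Pearson). Some genes that the rule for named genes selects are not reported here.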

Additional observations from a re-analysis of the deposited data

Results flagged for a closer look

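In Opalin-type nuclei, 4 values of 36 groups tested stood far from the other rats by Dixon's criterion, and chance flags about 1 in 20 groups. *Sez6l* was at 11.4 UMIs per 10000 in rat 1, against 3.38 to 4.56 in the other 3 rats, and its 24 UMIs in rat 1 came from 1 nucleus. *Jhy* was at 5.69 in rat 1, against 0.398 to 0.597, and 11 of its UMIs in rat 1 came from 1 nucleus. *Prrg1* and *Gsta6* were each at 0.551 in rat 2, from 7 UMIs, and had 0 UMIs in the other rats with members. With all other rats at 0, any value above 0 is flagged by this criterion. The flags of *Prrg1* and *Gsta6* thus do not show that rat 2 stood apart, and the rate of 1 in 20 does not hold for them.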

How the results depend on the processing

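Without the replicate block, 168 genes were higher and 145 lower (185 and 162 with it), of which 161 and 128 were called with it too. With at least 1 *Opalin* UMI the counts were 106 and 81 of 3394 genes tested, and with at least 4 *Opalin* UMIs 220 and 331 of 2530. They were 77 and 64 of 533 genes tested with matched UMI totals and 29 and 26 of 597 with nuclei thinned to 1000 UMIs. Without the deepest nucleus of each rat (chosen after seeing the data) they were 92 and 69. DESeq2 gave 173 and 121. With no filter, 164 and 214 of 18387 genes were called, among them 92 of the 185 higher and 159 of the 162 lower genes. Leaving out each rat in turn gave 115 to 245 higher and 69 to 280 lower, with 2547 (without rat 2) to 7870 (without rat 1) genes tested. Rat 3 entered a fit only with at least 1 *Opalin* UMI, where it had 3 such nuclei. All of the main calls that were tested kept their direction in all but 3 alternatives: 319 of 328 with at least 1 *Opalin* UMI, 144 of 145 thinned and 340 of 347 against nuclei with *Opalin* and *Grm3*. The share of Opalin-type nuclei was 2.09% with at least 1 *Opalin* UMI, 0.309% with at least 4 *Opalin* UMIs, and 0.49 to 1.01% with a rat left out (1.01% without rat 3). It was 2.52% of *Mog* nuclei with at least 1000 UMIs when these were thinned to 1000 UMIs. The thinned share also took at least 1 *Opalin* UMI and not the minimum of the rule, so it is to be set beside the 2.09%. The log2 fold change of *Bace2* turned to 0.00996 with at least 1 *Opalin* UMI. That of *Plekhg3* turned to -0.0617 with no filter, -0.0826 with at least 1 *Opalin* UMI, -0.0187 when thinned and -0.29 against nuclei with *Opalin* and *Grm3*, where *Slc8a1* turned to -0.23 and *Lrrc7* to -0.0834. *Jhy* passed the threshold as lower without rat 1 (-2.44), with no filter (-1.64), with at least 1 (-1.25) or 4 (-5.14) *Opalin* UMIs and against nuclei with *Opalin* and *Grm3* (-1.75). Of the genes named for the largest changes, 8 lost their call with at least 1 *Opalin* UMI, beside *Bace2*, 4 without rat 2 (*Bace2*, adjusted p = 0.107, among them), 3 against nuclei with *Opalin* and *Grm3*, 2 without rat 4, and 1 each with DESeq2, with no block and with free RNA subtracted (*Tnik*, 7.44, adjusted p = 0.0623). Of the other called genes of the lists, 16 lost it with at least 1 *Opalin* UMI, 16 without rat 4, 16 without the deepest nuclei, 12 when thinned, 10 without rat 2, 9 against nuclei with *Opalin* and *Grm3* beside *Slc8a1* and *Lrrc7*, 8 with no block, 8 without rat 5, 6 with no filter, 4 with matched totals, 2 with DESeq2 and 1 without rat 1. In these counts, a gene that an alternative left untested is neither kept nor lost. With matched totals, 142 of the 347 main calls were tested and 116 of them still called. With nuclei thinned, 145 were tested and 54 still called. The causes of these changes were not tested. With 57 nuclei, 5 to 35 per rat with members, genes of few UMIs were not tested.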
